A study of Sus scrofa with 60 samples.

Results

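ADH4 and 7 further genes of retinoid metabolism, ADH5, ALDH1A1, ALDH1A2, ALDH2, RBP4, LRAT, and CYP26A1, were followed in liver RNA-seq of 60 neonatal pigs. These 8 genes were taken by name from the 30335 named genes of the count table, and all 8 passed the filter on low counts. Pigs delivered preterm by caesarean section had sham surgery or bile duct ligation (BDL), in which the cystic and common bile ducts are tied so that bile cannot leave the liver. Each pig was then fed enteral formula (ENT), parenteral nutrition (PN) with a soy-based lipid emulsion (SLE), or PN with a mixed lipid emulsion (MLE), and the liver was taken on day 14. The sham pigs numbered 12 on ENT, 10 on SLE, and 9 on MLE, and the BDL pigs 10 on ENT, 11 on SLE, and 8 on MLE, males and females. Groups are written as diet and surgery, such as ENT-sham. All pigs carried a jugular catheter and were started on PN, and the ENT pigs were moved to full formula feeding in the course of the study, so no group was free of PN or of surgery.

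Retinol, or vitamin A, leaves the liver bound to RBP4 and is kept there as retinyl ester, which LRAT makes, mainly in stellate cells. Alcohol dehydrogenases such as ADH4 and the short-chain retinol dehydrogenases can oxidize retinol to retinal, and the cytosolic aldehyde dehydrogenases ALDH1A1 and ALDH1A2 oxidize retinal to retinoic acid, which binds nuclear receptors. CYP26A1 breaks retinoic acid down and is itself induced by it. ADH5 and ALDH2 are better known for the removal of formaldehyde and of acetaldehyde.

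The libraries held 14469788 to 21374161 counted reads (median 17254606). Values below are CPM, the usual depth-scaled counts, after scaling by the trimmed mean of M-values (TMM). Changes are log2 fold changes with their standard error (SE) from the quasi-likelihood test of edgeR, and a gene passed at a Benjamini-Hochberg adjusted p under 0.05 over the 16210 genes tested. ENT-sham replicate 2 and ENT-BDL replicate 1 were nearly the same library. Over 17232 genes their counts differed with a chi-square of 1.87 per degree of freedom, against 15.0 in the next closest of the 1770 pairs and a median of 80.2. ENT-sham replicate 2 summed to 648.7 CPM over 10 cholangiocyte markers, against 94.6 to 222.7 in the other 11 ENT-sham pigs. ENT-BDL replicate 1 summed to 628.3 CPM. Calls of the 8 genes that change when both of these libraries are left out are given with and without them.

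ADH4 (gene 100513366, chromosome 8, 121225485 to 121259262 of Sscrofa11.1, plus strand) was lower with BDL in ENT pigs, and lower on SLE and on MLE than on ENT in sham pigs. In ENT-sham its level ran from 6.89 to 281.3 CPM with a median of 75.3. In ENT-BDL the lowest, median, and highest pigs had 7.56, 13.7, and 56.4 CPM. In SLE-sham they had 5.51, 7.06, and 11.6 CPM, and in SLE-BDL 7.11, 7.83, and 13.1 CPM. The MLE-sham values were 6.14, 7.10, and 34.6 CPM, and MLE-BDL began at 4.82 CPM with a median of 7.46 CPM. The 38 PN pigs therefore lay at 4.82 to 13.1 CPM apart from MLE-sham replicate 2 at 34.6 CPM, and 9 of 12 ENT-sham pigs were above all of them. ENT-sham overlapped with the PN groups through its 3 lowest pigs. In ENT-BDL, 9 of 10 pigs had 7.56 to 17.2 CPM, below MLE-sham replicate 2, and only replicate 10 was above it. Of the 10 ENT-BDL pigs, 6 were above the next highest PN pig at 13.1 CPM.

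**Figure D1:**
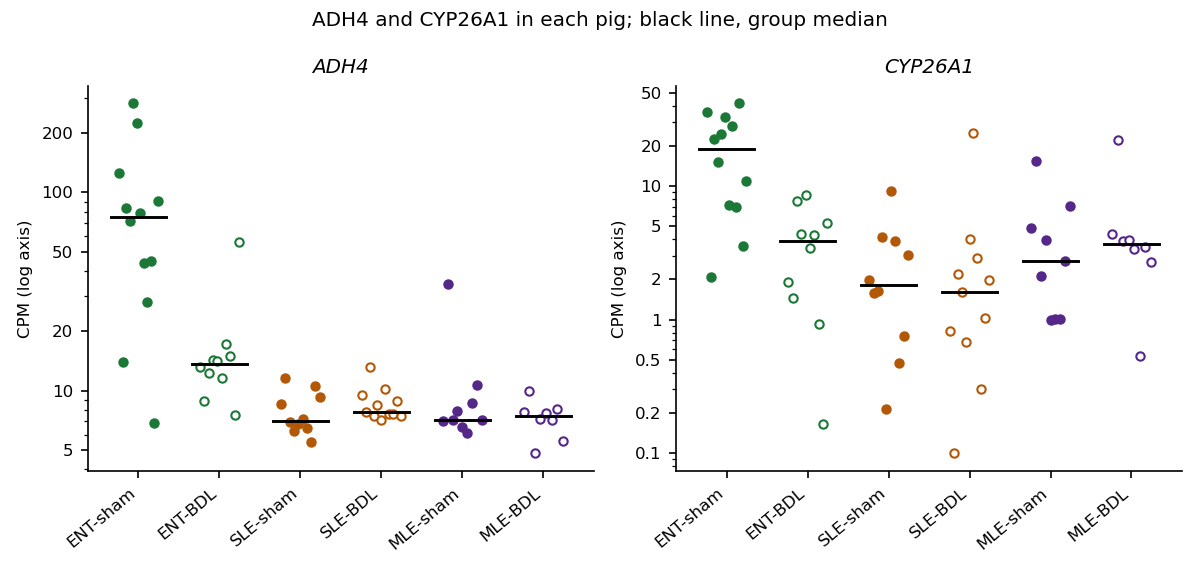
Level of ADH4 (left) and CYP26A1 (right) in CPM on a log axis in each of the 60 pigs, by group, with filled points for sham and open points for BDL pigs, and a black line at the group median. For ADH4, 9 of 12 ENT-sham pigs lie above the highest PN pig at 34.6 CPM, while CYP26A1 has its highest median, 18.9 CPM, in ENT-sham.

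BDL lowered ADH4 by 2.42 on the log2 scale in ENT pigs (log2 fold change -2.42, SE 0.38, edgeR adjusted p = 5.98e-06), or 5.36-fold. Among sham pigs, ADH4 was lower on SLE than on ENT (-3.53, SE 0.40, edgeR adjusted p = 9.92e-10) and lower on MLE than on ENT (-3.10, SE 0.41, edgeR adjusted p = 8.44e-08). Without the matching ENT libraries these changes were -2.50, -3.64, and -3.21. In SLE pigs BDL changed ADH4 by 0.13 (95% interval -0.62 to 0.88, edgeR adjusted p = 0.903), and in MLE pigs by -0.55 (-1.38 to 0.28, edgeR adjusted p = 0.426). Without MLE-sham replicate 2, the change in MLE pigs was -0.08 (edgeR adjusted p = 0.933). The response to BDL differed between SLE and ENT, by 2.55 (SE 0.53, edgeR adjusted p = 0.0035). SLE-sham already had a median of 7.06 CPM, below the lowest ENT-BDL pig at 7.56 CPM, so this difference also reflects the starting levels. The same difference between MLE and ENT was 1.88 (SE 0.55) and did not pass (edgeR adjusted p = 0.189), but passed without MLE-sham replicate 2, at 2.34 (edgeR adjusted p = 0.0423).

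Within BDL, the diets were closer. ADH4 was lower in MLE-BDL than in ENT-BDL (-1.22, SE 0.42, edgeR adjusted p = 0.0334), and 8 of 10 ENT-BDL pigs lay above all 8 MLE-BDL pigs. This call was lost without ENT-BDL replicate 10 (-0.80, edgeR adjusted p = 0.164), without MLE-BDL replicates 3, 4, or 8 (adjusted p of 0.0644, 0.0508, and 0.0568), and in the fits with the replicate number (-1.12, adjusted p = 0.0645) or the number in the titles of the pigs (-0.75, adjusted p = 0.328) as a block. SLE-BDL was at -0.97 against ENT-BDL (SE 0.37) and did not pass (edgeR adjusted p = 0.0569), but passed in DESeq2, with at least 10 counts in every pig, with only the groups compared, with the title number as a block, and without the matching ENT libraries (adjusted p of 0.0168 to 0.0475). It did not pass with RLE scaling, with no filter on low counts, with the replicate number as a block (-0.69, adjusted p = 0.224), or in 52 of the 60 fits without 1 pig, and without ENT-BDL replicate 10 it was -0.55 (edgeR adjusted p = 0.298). MLE and SLE differed by 0.43 in sham pigs (95% interval -0.35 to 1.21) and by -0.25 in BDL pigs (-1.04 to 0.55). Neither difference passed.

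The pigs of a group were not alike. The titles of the pigs carry a number shared across groups, whose meaning the labels do not give. In ENT-sham, the 5 pigs that share a number had 72.0 to 281.3 CPM of ADH4, a pair with another number had 27.9 and 44.0 CPM, and a further pair, which includes replicate 2, had 14.0 and 125.1 CPM. The lowest ENT-sham pig, at 6.89 CPM, and the lowest ENT-BDL pig, at 7.56 CPM, carry the same number. The highest ENT-BDL pig, at 56.4 CPM, shares its number with an ENT-sham pig at 90.4 CPM. With this number, called the identifier here, as a block, the change with BDL in ENT pigs was -2.23 and passed. Both sham diet comparisons passed as well, at -3.09 for SLE and -2.62 for MLE. Only 4 of the 8 identifiers occur among MLE pigs, so this MLE value rests on few comparisons within an identifier. Of the ENT-sham pigs, only those at 6.89 and 90.4 CPM share one with MLE pigs. MLE-sham pigs had 6.14 and 8.67 CPM with the identifier of the first. With that of the second they had 7.08 and 10.7 CPM. The 5 ENT-sham pigs at 72.0 to 281.3 CPM share theirs with no sham pig on SLE or MLE.

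ADH4 lies among the other alcohol dehydrogenase genes of pig chromosome 8. ADH5 begins 7.5 kb after the end of ADH4, and METAP1 follows on the opposite strand. Upstream are ADH1C, which encodes a class I alcohol dehydrogenase that oxidizes ethanol and retinol, and several loci with no symbol. ADH1C had a median of 1749.3 CPM in ENT-sham and 675.3 CPM in ENT-BDL. It fell with BDL on all 3 diets, by 1.36 in ENT (SE 0.25, edgeR adjusted p = 5.82e-05), by 0.79 in SLE (SE 0.24, edgeR adjusted p = 0.0465), and by 0.84 in MLE (SE 0.27, edgeR adjusted p = 0.0279). In sham pigs it was lower on SLE than on ENT (-0.93, SE 0.24, edgeR adjusted p = 0.00251), and at -0.39 for MLE it did not pass. METAP1 was at 0.22, 0.00, and 0.10 for BDL in ENT pigs and for SLE and MLE against ENT in sham pigs, and none of these passed.

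Reads at ADH4 may be shared with overlapping features. A pseudogene, LOC102161278, lies inside ADH4 on the same strand, and its median was 3.25 CPM in ENT-sham, 0.554 CPM in ENT-BDL, and 0.281 CPM or less in each PN group. ADH4 also lies within the span of C8H4orf17, on the opposite strand, and the use of strand in counting is not stated. C8H4orf17 had medians of 7.94 CPM in ENT-sham and 14.0 CPM in ENT-BDL, and did not pass there (0.60, SE 0.25, edgeR adjusted p = 0.09). It was lower in MLE-BDL than in ENT-BDL (-1.94, SE 0.30, edgeR adjusted p = 3.59e-06), where ADH4 was lower as well, and it fell with BDL in MLE pigs (-0.95, SE 0.30, edgeR adjusted p = 0.0249). Its part in the ADH4 counts was not tested.

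**Figure D2:**
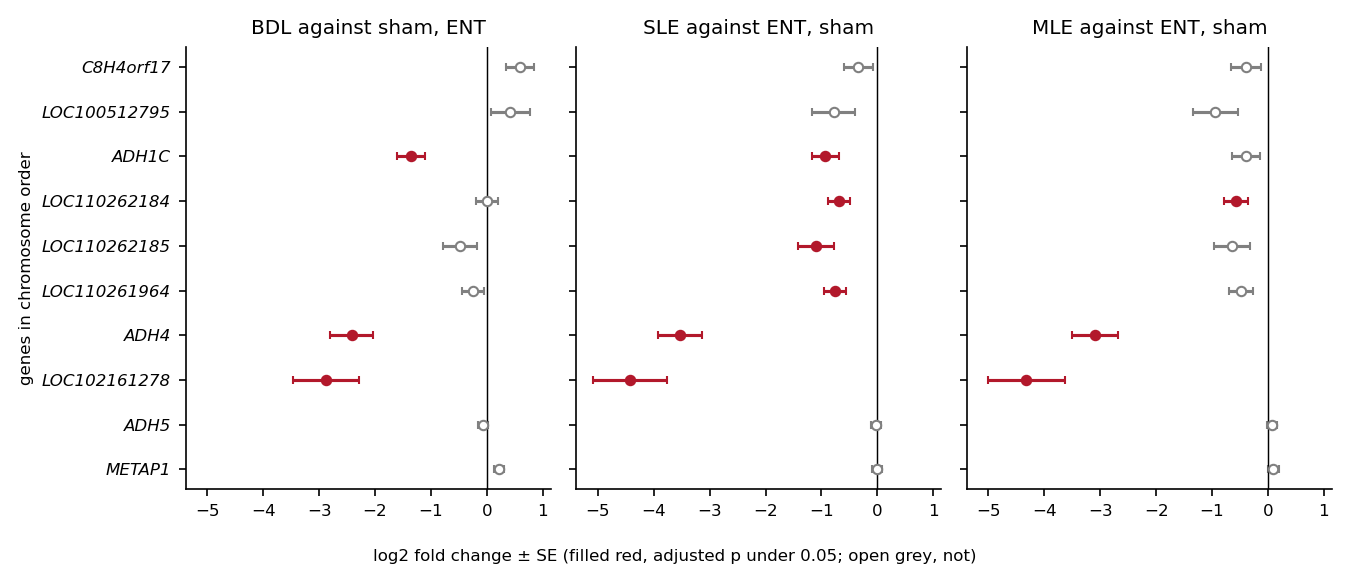
Log2 fold change ± SE of the genes around ADH4, in chromosome order, for BDL against sham in ENT pigs and for SLE and MLE against ENT in sham pigs, with filled red points for an adjusted p under 0.05. ADH4 stands at -2.42, -3.53, and -3.10, its next gene ADH5 at -0.06, -0.03, and 0.08, and only the pseudogene inside ADH4 lies further to the left.

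CYP26A1 (gene 100124374, chromosome 14, 104561394 to 104567099, plus strand) also had its highest level in ENT-sham. There it ran from 2.07 to 41.6 CPM with a median of 18.9, and in ENT-BDL from 0.164 to 8.59 CPM with a median of 3.87. On SLE the medians were 1.80 CPM in sham and 1.60 CPM in BDL pigs, and on MLE 2.74 and 3.69 CPM. The highest pigs of these 4 groups, in the same order, had 9.16, 24.8, 15.3, and 22.3 CPM, and the next highest 4.14, 4.04, 7.08, and 4.37 CPM. In addition, 3 libraries (1 SLE-sham, 1 SLE-BDL, and 1 ENT-BDL) had only 3 counts or fewer. Within a PN group CYP26A1 thus ranged more widely than any difference between the medians of those groups.

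CYP26A1 was lower in ENT-BDL than in ENT-sham (-2.35, SE 0.64, edgeR adjusted p = 0.0072), and 8 of 12 ENT-sham pigs lay above every ENT-BDL pig. In sham pigs it was lower on SLE than on ENT (-2.82, SE 0.66, edgeR adjusted p = 0.000819) and lower on MLE than on ENT (-2.15, SE 0.66, edgeR adjusted p = 0.0148), the latter not with the identifier block (-1.94, edgeR adjusted p = 0.069). After BDL the diets did not separate, with -0.06 for SLE (95% interval -1.32 to 1.20) and 0.56 for MLE (-0.78 to 1.90) against ENT. BDL changed CYP26A1 by 0.42 in SLE pigs (-0.87 to 1.70) and by 0.36 in MLE pigs (-1.01 to 1.73), neither of which passed. Leaving out single pigs moved these between -0.80 and 0.86 in SLE and between -0.44 and 0.90 in MLE pigs. The response in SLE differed from that in ENT by 2.76 (SE 0.91) and did not pass (edgeR adjusted p = 0.0914), but did in DESeq2 (2.79, adjusted p = 0.0469), without ENT-sham replicate 2 (2.89, edgeR adjusted p = 0.0488), and without SLE-sham replicate 6 (3.21, edgeR adjusted p = 0.0457). The other 58 fits without 1 pig did not pass, and without SLE-BDL replicate 7 the difference was 1.54 (edgeR adjusted p = 0.394).

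RBP4 (gene 397124, chromosome 14, 105037360 to 105044552, minus strand), the plasma carrier of retinol, lies 470.3 kb from CYP26A1. Its lowest, median, and highest levels were 1721.6, 3563.7, and 4261.3 CPM in ENT-sham and 1719.8, 2277.1, and 2861.6 CPM in ENT-BDL. The lowest ENT-sham pig was replicate 2, and the other 11 had at least 3226.4 CPM, above every ENT-BDL pig. In MLE-sham the values were 2600.2, 2903.8, and 3306.8 CPM, and in MLE-BDL 1745.7, 1944.1, and 2544.0 CPM, so that the MLE groups did not overlap. In SLE-sham they were 1839.0, 2547.7, and 2927.2 CPM, and in SLE-BDL 1679.0, 2101.5, and 2808.7 CPM, with a broad overlap.

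RBP4 fell with BDL by 0.60 in ENT pigs (SE 0.10, edgeR adjusted p = 1.79e-05) and by 0.54 in MLE pigs (SE 0.11, edgeR adjusted p = 0.000576). In SLE pigs its change was -0.16 (95% interval -0.36 to 0.04, edgeR adjusted p = 0.42). The difference between the SLE and ENT responses, 0.44 (SE 0.14), did not pass (edgeR adjusted p = 0.0867), but passed without the matching ENT libraries, at 0.47 (edgeR adjusted p = 0.0162). In sham pigs RBP4 was lower on SLE than on ENT (-0.49, SE 0.10, edgeR adjusted p = 0.000161). On MLE it was at -0.24 (SE 0.10, edgeR adjusted p = 0.0844), and at -0.31 without the matching ENT libraries, which passed (edgeR adjusted p = 0.00685). After BDL the 3 diets had RBP4 within -0.18 to -0.04 of one another, and no diet comparison passed.

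LRAT (gene 100513994, chromosome 8, 74412226 to 74428713, minus strand), which esterifies retinol for storage, had medians of 26.9, 17.3, and 20.5 CPM in sham pigs on ENT, SLE, and MLE, and of 22.4, 14.6, and 22.5 CPM in BDL pigs. The lowest pig of all, in SLE-BDL, had 6.21 CPM and the highest, in ENT-sham, 35.4 CPM. LRAT was lower on SLE than on ENT in sham pigs (-0.72, SE 0.16, edgeR adjusted p = 0.00054) and in BDL pigs (-0.55, SE 0.16, edgeR adjusted p = 0.0134), the latter not when only the groups compared were fitted (-0.56, edgeR adjusted p = 0.0667). For MLE against ENT it was at -0.38 in sham pigs (edgeR adjusted p = 0.0961), and passed without the matching ENT libraries (-0.45, edgeR adjusted p = 0.0382), and at -0.06 in BDL pigs (edgeR adjusted p = 0.866). BDL moved LRAT by -0.18, -0.01, and 0.14 in ENT, SLE, and MLE pigs, and none of these passed. Of 15 stellate cell markers, HAND2 was the only gene that passed between SLE-sham and ENT-sham, where it was lower, and COLEC11 the only gene, also lower, between SLE-BDL and ENT-BDL. Of all tested genes, 27.5% and 19.6% passed in these comparisons. The summed stellate markers had medians of 840.7 CPM in ENT-sham and 939.4 CPM in SLE-sham, with ranges of 673.7 to 1791.7 and 682.8 to 1537.2 CPM. The highest ENT-sham value was that of replicate 2, and the other 11 pigs ended at 1135.0 CPM. In whole liver tissue, fewer cells of a type and less RNA per cell cannot be told apart.

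ALDH2 (gene 733685, chromosome 14, 39902317 to 39933113, minus strand), the mitochondrial enzyme that removes acetaldehyde, was lower on PN than on ENT in all 4 comparisons of diets with ENT, and this held in every alternative fit, those without single pigs included. In sham pigs it was lower by 0.67 on the log2 scale on SLE (log2 fold change -0.67, SE 0.12, edgeR adjusted p = 1.23e-05), and at -0.45 on MLE (SE 0.12, edgeR adjusted p = 0.00477). In BDL pigs it was at -0.55 on SLE (SE 0.12, edgeR adjusted p = 0.00061) and at -0.61 on MLE (SE 0.13, edgeR adjusted p = 0.000574). Its median was 612.6 CPM in ENT-sham, against 369.3 and 399.4 CPM in sham pigs on SLE and MLE, and 362.2 and 337.3 CPM in BDL pigs on those diets. In SLE-sham the highest pig had 433.7 CPM, below 11 of 12 ENT-sham pigs, and the remaining ENT-sham pig was replicate 2 at 355.0 CPM. BDL changed ALDH2 by -0.14, -0.02, and -0.30 in ENT, SLE, and MLE pigs, and none of these passed.

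**Figure D3:**
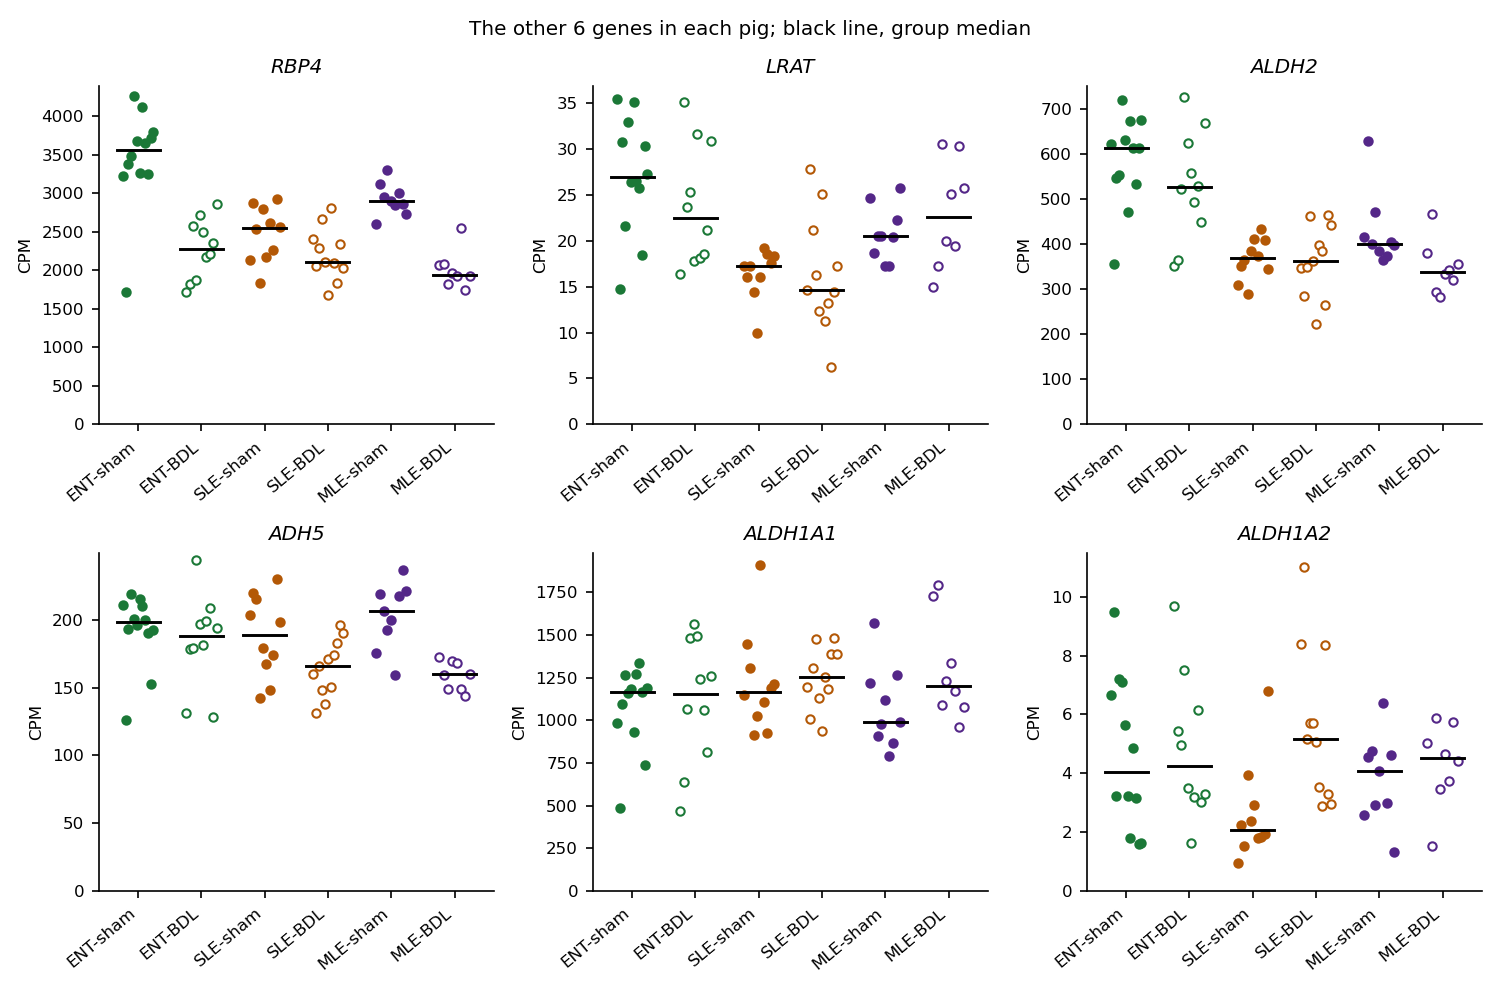
Levels of RBP4, LRAT, ALDH2, ADH5, ALDH1A1, and ALDH1A2 in CPM in each pig, by group, on linear axes from 0, with filled points for sham, open points for BDL, and a black line at the group median. RBP4 shows no overlap between MLE-sham (2600.2 to 3306.8 CPM) and MLE-BDL (1745.7 to 2544.0 CPM), whereas the ALDH1A1 groups overlap throughout.

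Of the enzymes that make retinoic acid, ALDH1A1 (gene 100517137, chromosome 1, 226163347 to 226217342, minus strand) had group medians between 989.6 CPM in MLE-sham and 1254.7 CPM in SLE-BDL, and single pigs from 470.6 to 1912.0 CPM. It passed in none of the 12 comparisons, with changes from -0.18 to 0.27. Its 95% interval was -0.25 to 0.36 for BDL in ENT pigs, and -0.11 to 0.49 for SLE against ENT in sham pigs. The lowest ENT pigs were ENT-sham replicate 2 at 487.0 CPM and ENT-BDL replicate 1 at 470.6 CPM, the pair of matching libraries.

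ALDH1A2 (gene 100737077, chromosome 1, 113932722 to 114037059, plus strand) was a gene of low level, with medians of 2.08 CPM in SLE-sham and 4.04 to 5.17 CPM in the other groups. BDL raised it in SLE pigs, from a median of 2.08 CPM (0.933 to 6.81) to 5.17 CPM (lowest 2.89) (log2 fold change 1.10, SE 0.31, edgeR adjusted p = 0.031). It was also lower in SLE-sham than in ENT-sham (-0.81, SE 0.31, edgeR adjusted p = 0.0408). Both calls share the SLE-sham pigs, and both depended on the fit. The first was lost with the identifier block (0.70, edgeR adjusted p = 0.194), with only the groups compared (1.10, edgeR adjusted p = 0.0524), and when any 1 of 9 pigs was left out (0.95 to 1.07). The second was lost with the identifier block (-0.19, edgeR adjusted p = 0.702), with only the groups compared, with no filter on low counts, without the matching ENT libraries (-0.67, edgeR adjusted p = 0.0857), and when any 1 of 12 pigs was left out (-0.80 to -0.67).

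In the SLE comparison of BDL with sham, ACTA2 and RGS5 rose as 2 of the 15 stellate markers, and KRT7 as 1 of 10 cholangiocyte markers. Of all tested genes, 4.54% passed there. The summed stellate markers ran from 682.8 to 1537.2 CPM in SLE-sham and from 773.2 to 3560.1 CPM in SLE-BDL. Their part in the rise of ALDH1A2 was not tested.

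ADH5 (gene 100513555, chromosome 8, 121266794 to 121282313, plus strand), the class III enzyme that handles the glutathione adduct of formaldehyde, had medians of 198.1, 188.8, and 206.9 CPM in sham pigs on ENT, SLE, and MLE, and of 188.0, 166.1, and 159.8 CPM in BDL pigs. It fell with BDL in MLE pigs, by 0.35 on the log2 scale (SE 0.10, edgeR adjusted p = 0.0131), and 8 of 9 MLE-sham pigs lay above every MLE-BDL pig. In ENT and SLE pigs its changes were -0.06 (95% interval -0.24 to 0.12) and -0.19 (-0.37 to -0.01), with adjusted p of 0.701 and 0.251 in edgeR. Between BDL pigs ADH5 was at -0.16 for SLE against ENT (edgeR adjusted p = 0.218) and passed with the identifier block (-0.25, SE 0.08, edgeR adjusted p = 0.0256). For MLE against ENT it was at -0.21 (edgeR adjusted p = 0.144) and passed without the matching ENT libraries (-0.26, SE 0.09, edgeR adjusted p = 0.0415). In the comparison of SLE-sham with ENT-sham, where ADH4 was lower by 3.53, ADH5 was at -0.03 (-0.21 to 0.14).

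Counted over the 8 genes, BDL lowered 3 in ENT pigs (ADH4, RBP4, and CYP26A1) and raised none, where 17.4% of all tested genes passed and 8.53% fell. ADH4 and CYP26A1 changed by more than 2-fold there, against 3.39% of all tested genes. In SLE pigs 1 of 8 rose (ALDH1A2), with 4.54% of all genes passing and 2.97% rising. In MLE pigs 2 of 8 fell (ADH5 and RBP4), with 14.4% passing and 6.58% falling, and 0 changed by more than 2-fold, against 3.78%. Between sham pigs, 6 of 8 were lower on SLE than on ENT, with 27.5% of all genes passing and 13.6% lower, and 2 of 8 (ADH4 and CYP26A1) by more than 2-fold, against 5.24%. For MLE, 3 of 8 were lower (ADH4, ALDH2, and CYP26A1), with 21.1% passing and 10.4% lower. Between BDL pigs, 2 of 8 were lower on SLE than on ENT (ALDH2 and LRAT), with 19.6% passing and 9.17% lower, and 0 by more than 2-fold, against 3.13%. On MLE 2 of 8 were lower (ADH4 and ALDH2), with 16.8% passing and 8.27% lower, and 1 of 8 (ADH4) by more than 2-fold, against 3.18%. The diet comparisons and the BDL comparisons in ENT pigs share their ENT pigs, so they are not separate counts.

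No member passed between the 2 emulsions. So few of all tested genes passed there that 0 of 8 does not set the members apart. MLE against SLE gave 0 of 8 in BDL pigs, where 0.907% of all genes passed, and 0 of 8 in sham pigs, where 0.999% passed, and neither DESeq2 nor any of the other fits called a member. In edgeR at an unadjusted p under 0.05, LRAT in BDL pigs (0.48, p = 0.00708) and RBP4 in sham pigs (0.24, p = 0.0281) were the members that reached it, and they did so in DESeq2 as well. For the interactions, 1 of 8 passed for SLE against ENT (ADH4), with 2.33% of all genes, 0 of 8 for MLE against ENT, with 0.0617%, and 0 of 8 for MLE against SLE, with 0.265%. These shares stand for 377, 10, and 43 genes, and without both matching ENT libraries the counts were 725, 38, and 81 of 16141 genes tested. DESeq2 also gave 0 of 8 for both interactions with MLE. At an unadjusted p under 0.05 in edgeR, ADH4, ADH5, and CYP26A1 reached it for MLE against ENT, and RBP4 for MLE against SLE. The median change of the 8 genes was -0.16 for BDL in ENT pigs and -0.69 for SLE against ENT in sham pigs, against 0.01 and -0.01 over all tested genes.

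**Figure D4:**
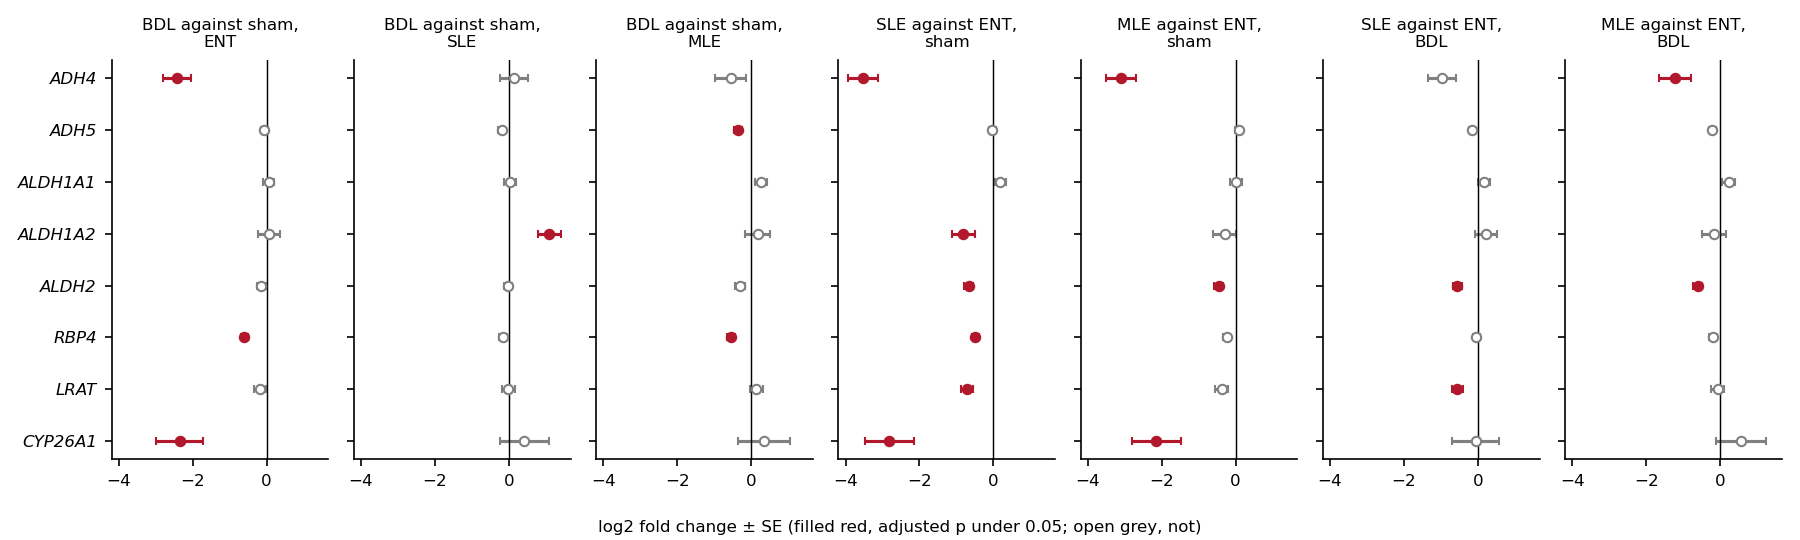
Log2 fold change ± SE of the 8 genes in 7 comparisons, 1 panel for each comparison, with filled red points for an adjusted p under 0.05 and open grey points for the rest. ADH4 and CYP26A1 stand to the left in ENT-BDL against ENT-sham (-2.42 and -2.35) and in both sham comparisons with ENT, and ALDH1A2 in SLE is the red point to the right of 0.

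Levels can be set beside each other between genes only per length. In ENT-sham, the median CPM per kilobase of listed exon was 641.2 for RBP4, 548.8 for ALDH1A1, 299.3 for ALDH2, 130.7 for ADH5, 17.6 for ADH4, 7.73 for LRAT, 4.79 for CYP26A1, and 0.993 for ALDH1A2. In SLE-sham, ADH4 stood at 1.65 and LRAT at 4.96 CPM per kilobase, so that ADH4 was below LRAT on this diet and above it in ENT-sham. ADH1C, at 1162.3 CPM per kilobase in ENT-sham and 662.6 in SLE-sham, was above every member of the set.

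Over the 60 pigs, ADH4 followed ALDH2 (Pearson r of log2 CPM 0.69), CYP26A1 (0.65), and RBP4 (0.63), and after the group means were removed these were 0.40, 0.44, and 0.39. ADH4 and ALDH1A1 were at 0.07 over all pigs and at 0.45 after group means were removed. The values describe pigs that share libraries and depth across all genes, and no test is attached to them. Of the tested genes with a symbol, those most like ADH4 over the 60 pigs were SLCO1A2 (0.81), MMP19 (0.81), FDX1 (0.81), KHK (0.79), and USF2 (0.78). After the group means were removed these were 0.46, 0.51, 0.33, 0.57, and 0.48. SLCO1A2 transports bile acids and other organic anions, FDX1 passes electrons to mitochondrial cytochromes P450, and KHK phosphorylates fructose. CYP26A1 was most like HSD17B13 (0.69), PON1 (0.69), and KHK (0.68), so that KHK was among the nearest genes of both. For RBP4 they were TFR2 (0.86), ASGR1 (0.85), and CD302 (0.85), of which ASGR1 is also on the list of hepatocyte markers. For LRAT they were POSTN (0.72), FZD1 (0.69), and CDH2 (0.65). For ALDH2, CRYZ, FMO5, and HSD17B10 were each at 0.87. The nearest genes of ADH5 were CRLS1 (0.72), ALG9 (0.71), and GLO1 (0.70), and those of ALDH1A1 were FTL, NDUFB10, and MTCH2 at 0.74 each. ALDH1A2 had no gene above 0.55 (PTN). After the group means were removed, the genes nearest to the 7 members other than ADH4 lay between 0.43 (CDH2 with LRAT) and 0.81 (HSD17B10 with ALDH2).

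Other enzymes that interconvert retinol and retinal did not move as a body. Of 9 such genes tested, 3 were higher and 3 lower in SLE-sham than in ENT-sham, where 27.5% of all tested genes passed. DHRS3, which reduces retinal back to retinol and is induced by retinoic acid, was lower on PN in all 4 comparisons with ENT, at -1.22 for SLE-sham (SE 0.13, edgeR adjusted p = 1.25e-10) and -1.21 for MLE-sham (SE 0.14, edgeR adjusted p = 1.03e-09), and at -0.62 and -1.05 for the BDL groups. Its median was 139.4 CPM in ENT-sham, 57.5 in SLE-sham, and 57.0 CPM in MLE-sham. RDH11, another retinal reductase, was higher on PN in sham pigs, by 0.94 on SLE (SE 0.12, edgeR adjusted p = 4.42e-09) and 0.73 on MLE (SE 0.12, edgeR adjusted p = 5.26e-06).

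RDH16, a liver retinol dehydrogenase, was lower on SLE (-1.39, SE 0.31, edgeR adjusted p = 0.000396) and on MLE (-1.18, SE 0.32, edgeR adjusted p = 0.00443) than on ENT in sham pigs. RDH16 rose with BDL in SLE pigs (1.09, SE 0.31, edgeR adjusted p = 0.0293), where its median went from 33.2 to 90.0 CPM. The 5 SLE-BDL pigs that share a title number had 90.5 to 151.2 CPM of RDH16, and no SLE-sham pig carries that number. The other 6 SLE-BDL pigs had 19.3 to 90.0 CPM, against 22.3 to 73.3 CPM in SLE-sham, so for those 5 pigs BDL and the number cannot be told apart. RDH16 was also lower in MLE-BDL than in SLE-BDL (-1.43, SE 0.34, edgeR adjusted p = 0.0225), where the same 5 pigs are in the SLE group and no MLE pig carries their number, and lower in MLE-BDL than in ENT-BDL (-1.57, SE 0.34, edgeR adjusted p = 0.000718). The ENT comparisons share this limit, since pigs of that number are also in both ENT groups and in no other sham group. In ENT-BDL the 3 pigs with the number had 133.4 to 181.6 CPM of RDH16 and the other 7 had 31.9 to 86.1 CPM, and in ENT-sham the 5 pigs with it had 49.7 to 193.9 CPM and the other 7 had 61.9 to 118.3 CPM. DHRS9 rose with BDL in ENT (0.73) and MLE pigs (1.24), at medians of 2.36 CPM or less. In every BDL comparison, ADH1C was the only 1 of these 9 genes that fell.

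Of 14 other aldehyde dehydrogenases tested, 5 fell and 1 rose with BDL in ENT pigs, 1 fell in SLE pigs, and 4 fell and 1 rose in MLE pigs. Of all tested genes, 17.4%, 4.54%, and 14.4% passed there. ALDH6A1 and ALDH7A1, enzymes of amino acid breakdown, fell in both ENT (-0.44 and -0.39) and MLE pigs (-0.61 and -0.47). ALDH1B1, a mitochondrial enzyme related to ALDH2, went the other way from ALDH2 on PN. It was higher on PN in all 4 comparisons with ENT, at 0.52 and 0.67 in SLE-sham and MLE-sham and at 0.56 and 1.03 in SLE-BDL and MLE-BDL (edgeR adjusted p of 1.68e-08 in the last).

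**Figure D5:**
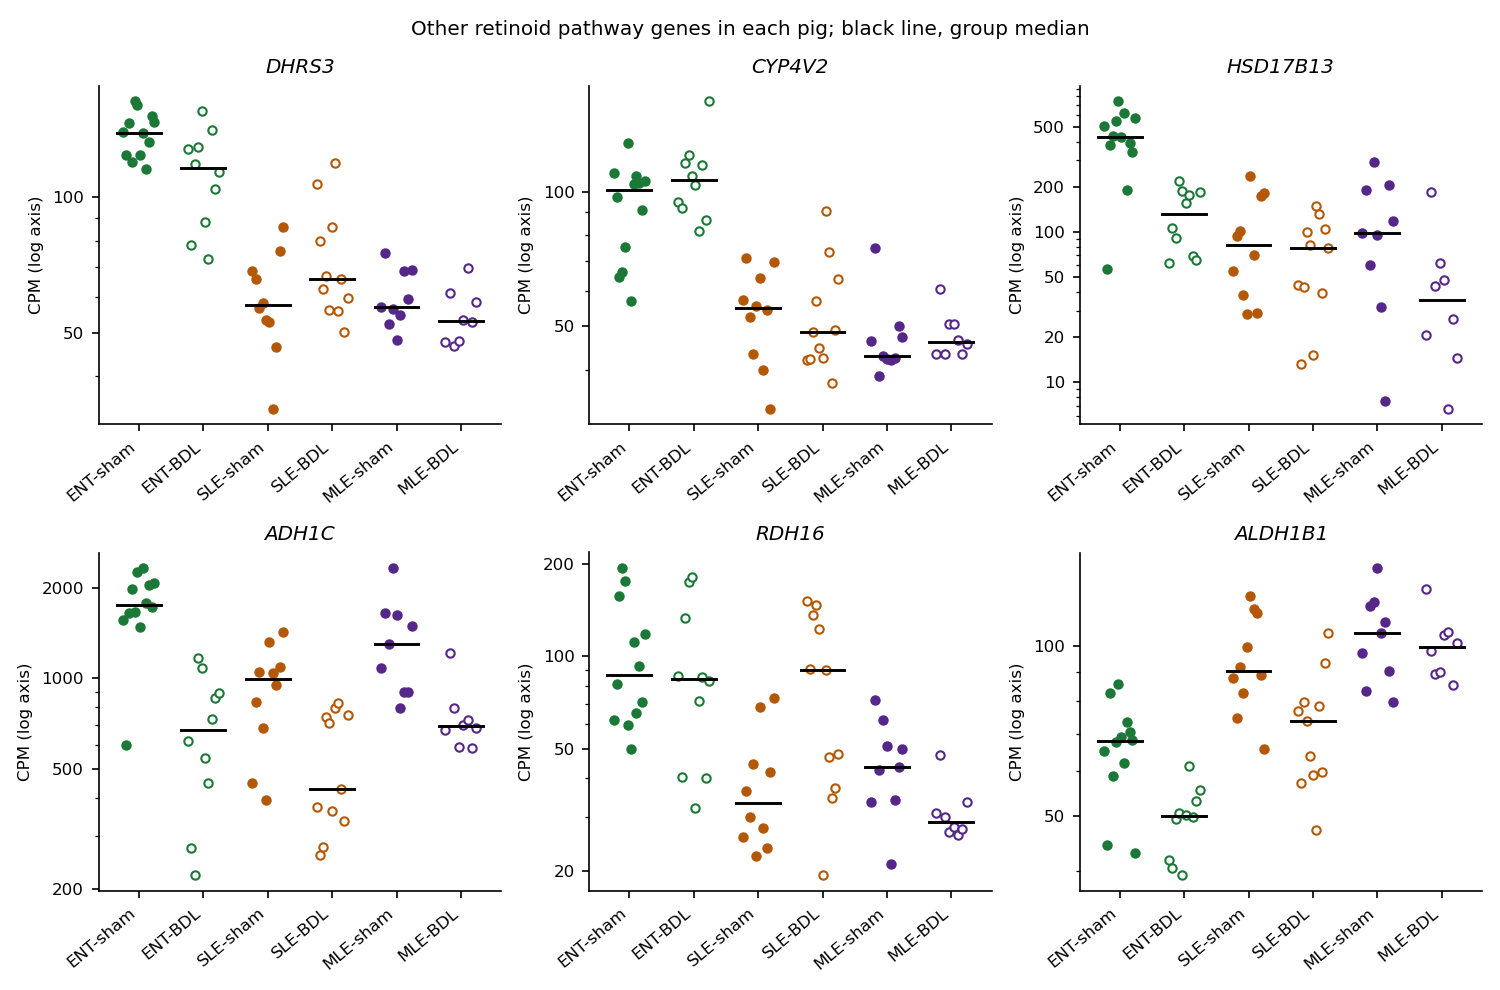
Levels of DHRS3, CYP4V2, HSD17B13, ADH1C, RDH16, and ALDH1B1 in CPM on log axes in each pig, by group, with filled points for sham, open points for BDL, and a black line at the group median. DHRS3 and CYP4V2 are lower on both PN diets than on ENT (medians of 139.4 and 57.5 CPM for DHRS3 in ENT-sham and SLE-sham), and ALDH1B1 is higher.

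Of the 7 tested genes that bind or carry retinoids, 3 rose with BDL in ENT pigs and none fell, where 17.4% of all tested genes passed. FABP5, a carrier of fatty acids and retinoic acid, rose by 1.19 in ENT (SE 0.33, edgeR adjusted p = 0.00851) and by 1.53 in MLE pigs (SE 0.37, edgeR adjusted p = 0.00237). STRA6, the receptor of RBP4, also rose, but its medians were only 0.0246 CPM in ENT-sham and 0.612 CPM in ENT-BDL, and 11 of 12 ENT-sham libraries had 3 counts or fewer. CRABP1, which binds retinoic acid in the cytosol, fell with BDL in SLE (-1.31, SE 0.39, edgeR adjusted p = 0.0355) and MLE pigs (-2.49, SE 0.44, edgeR adjusted p = 5.27e-05), and its median was highest in MLE-sham at 8.24 CPM. TTR, the partner of RBP4 in plasma, was lower on PN in all 4 comparisons with ENT (-0.88 to -0.41), and it fell with BDL in MLE pigs (-0.71, SE 0.15, edgeR adjusted p = 0.000453). In ENT and SLE pigs it was at -0.24 and -0.29 and did not pass, and no interaction of TTR passed. RBP5, a cellular retinol-binding protein, was higher on PN in all 4 (0.62 to 0.72).

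Among 8 tested genes that form or hydrolyse retinyl and other esters, HSD17B13 was also the gene most like CYP26A1 over the pigs. This lipid droplet protein with retinol dehydrogenase activity fell with BDL in ENT pigs (-1.72, SE 0.48, edgeR adjusted p = 0.00786) and was lower in sham pigs on SLE (-2.10, SE 0.48, edgeR adjusted p = 0.000649) and on MLE (-1.82, SE 0.50, edgeR adjusted p = 0.00533). Its median was 429.2 CPM in ENT-sham and 35.1 to 131.4 CPM in the other 5 groups. DGAT1, which can esterify retinol, fell with BDL in ENT (-0.55) and MLE pigs (-0.58) and was lower on SLE (-0.53) and on MLE (-0.30) in sham pigs. LPL, a lipase of low level in these livers, had medians of 0.135 CPM in ENT-sham, 1.63 CPM in ENT-BDL, and 2.41 CPM in SLE-sham, with 3 counts or fewer in 9 of 12 ENT-sham libraries.

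Of 4 tested genes of carotenoid cleavage and uptake, BCO1, which cleaves beta-carotene to retinal, fell with BDL in ENT (-0.34) and MLE pigs (-0.50), as did the lipoprotein receptor SCARB1 (-0.67 and -0.34). CD36, a fatty acid and carotenoid transporter, rose in both (0.82 and 1.33) and was higher on SLE than on ENT (1.71 in sham and 1.24 in BDL pigs). CYP4V2, a cytochrome P450 of fatty acid hydroxylation that was listed as a possible route of retinoic acid breakdown, was lower on PN in all 4 comparisons with ENT, at -0.78 on SLE and -0.97 on MLE in sham pigs, and at -1.16 on MLE in BDL pigs. It did not pass with BDL on any diet.

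Of 11 tested retinoic acid receptors and partners, RXRA, RARB, and NR2F1 fell with BDL in ENT pigs, by 0.37, 0.51, and 0.58 on the log2 scale, and NR2F1 also fell in MLE pigs (-0.38). None passed in edgeR with BDL in SLE pigs, where NR2F1 (-0.23) and RARB (-0.28) had an unadjusted p under 0.05. Of 12 tested genes known to respond to retinoic acid, DHRS3, MEIS1, and PDK4 were lower on PN in all 4 comparisons with ENT. In BDL pigs RARB was higher and RARRES2 lower on MLE than on ENT, and the receptor RARA was higher on both PN diets. PDK4, a brake on pyruvate dehydrogenase that also responds to fasting and fatty acids, was at -0.75 and -1.39 on SLE and MLE in sham pigs and at -1.19 and -2.16 in BDL pigs. FGF21 was higher on SLE than on ENT (1.39 in sham and 1.09 in BDL pigs). Between the emulsions, RDH16 and PDK4 were lower and ALDH1B1 higher in MLE-BDL than in SLE-BDL, and FABP5, LPL, and CD36 were lower in MLE-sham than in SLE-sham. These lists overlap, since DHRS3 and RARB are each on more than 1 of them.

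Markers of liver cell types were followed in the same comparisons. Of all tested genes, 17.4%, 4.54%, and 14.4% passed with BDL in ENT, SLE, and MLE pigs. Of 12 hepatocyte markers, 5 fell and 1 rose with BDL in ENT pigs, none passed in SLE pigs (6 at an unadjusted p under 0.05 in edgeR), and 7 fell in MLE pigs. RBP4 also fell in ENT and MLE pigs, and in SLE pigs it was at -0.16 and did not pass. A link between RBP4 and these markers was not tested. ALB fell by 0.83 in ENT and 0.77 in MLE pigs on the log2 scale. The summed hepatocyte markers had a median of 165678.6 CPM (96502.7 to 190728.2) in ENT-sham and 130437.0 CPM (96957.9 to 173408.3) in ENT-BDL. Both lowest values came from the matching libraries, and the other pigs began at 142642.0 CPM in ENT-sham and at 117975.3 CPM in ENT-BDL. Between SLE-sham and ENT-sham, 5 of 12 were lower and 1 higher, with a summed median of 153706.2 CPM in SLE-sham (132292.6 to 194129.6). Between MLE-sham and ENT-sham, where ADH4 and CYP26A1 were lower, 3 were lower and 2 higher, with a median change of 0.02 over the list. Of all tested genes, 27.5% and 21.1% passed in these sham comparisons. In BDL pigs, TTR was lower on SLE and on MLE than on ENT, and APOB was higher on SLE. In MLE-sham and MLE-BDL the summed medians were 174269.9 CPM (151982.8 to 220648.3) and 122379.7 CPM (108742.4 to 130017.6). None of the hepatocyte markers passed with a change of more than 2-fold in these comparisons.

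Of 10 cholangiocyte markers, 6 rose with BDL in ENT, 1 in SLE, and 7 in MLE pigs. Their summed medians were 154.2 CPM in ENT-sham (94.6 to 648.7) and 384.3 CPM in ENT-BDL (341.4 to 633.3), 345.9 and 434.2 CPM in SLE-sham and SLE-BDL, and 234.6 and 423.0 CPM in MLE-sham and MLE-BDL. Between SLE-sham and ENT-sham, 3 of 10 were higher (CLDN4, KRT19, and SPP1) and none lower, with a median change of -0.05 over the list, and SPP1 was at 2.51 (SE 0.28, edgeR adjusted p = 8.11e-10). Of 10 macrophage markers, MARCO rose with BDL on all 3 diets (1.48, 1.01, and 1.13), while C1QA and CD5L fell in ENT, CLEC4F fell in SLE, and C1QA, C1QC, and CD5L fell in MLE pigs. The median changes over the macrophage list were -0.36, -0.25, and -0.37, and its summed median was 2018.8 CPM in ENT-sham and 1405.2 CPM in ENT-BDL. Of 7 endothelial markers, CLEC4G and LYVE1 fell in ENT and CLEC4G and STAB1 in MLE pigs. Of 15 stellate markers, DES and VIPR1 fell with BDL in ENT pigs, where 17.4% of all tested genes passed. In MLE pigs, where 14.4% passed, COL1A1 and PCDH7 rose and COLEC11, DES, GFAP, and VIPR1 fell. The part of these cell types in the changes of ADH4, CYP26A1, and RBP4 was not tested.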

How the data were processed

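RNA was measured in liver samples of 60 pigs, with titles that name separate animals, apart from 1 pig identifier that appears on both replicates 9 and 10 of SLE-sham. Their counts differed with a chi-square of 31.7 per degree of freedom, against medians of 49.1 over pairs within a group and 80.2 over all pairs. Both were kept and counted as separate pigs. The authors deposited a table of raw counts per gene, not normalized, made from poly-A libraries aligned to Sscrofa11.1. The submitters' processing notes name HISAT2 2.0.5, StringTie 1.3.3, and featureCounts 1.5.0-p3, and strand use in counting is not given in the sources used here. Rows of 24 features without a name were left out (0.0084 to 0.0407% of counts per library).

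Groups came from the sample labels. edgeR 4.0.16 in R 4.3.3 was run once on all 60 pigs (filterByExpr, TMM, robust quasi-likelihood fit), with Benjamini-Hochberg adjustment over 16210 genes, and 12 comparisons were drawn from it. CPM were computed from TMM-scaled library sizes, and log2 CPM with a prior count of 2. The alternatives were DESeq2 1.42.0, RLE scaling, no filter, at least 10 counts in every pig, only the groups compared, the replicate number or the identifier as a block, no matching ENT libraries, each pig left out, and a fold threshold of 2. The script was tested on simulated data. Tables and figures were made with Python 3.11.15, pandas 2.3.3, and matplotlib 3.10.9.

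The members and gene lists were chosen with earlier results of these data known. Named list genes were those over 2-fold in a comparison, up to 3 per list, and the genes most like a member were the 5 highest correlations for ADH4 and the 3 highest for each other member. Other named genes were chosen after their values were seen. Same-numbered pigs of different groups did not deviate together (median r -0.011 over 82 pairs), so the replicate numbers do not pair them. Pigs of different groups with the same identifier had a median r of 0.129 (177 pairs, -0.066 to 0.639), against -0.019 over 1318 pairs with different identifiers. The labels do not say what the identifier marks.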

Additional observations from a re-analysis of the deposited data

Results flagged for a closer look

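Among 32 sets of a member in a group of 4 to 10 pigs, 6 had a pig whose gap to its nearest neighbour was large for the range of the group on the log2 CPM scale, where chance gives about 1 in 20. They came from 5 libraries. ADH4 was at 56.4 CPM in ENT-BDL replicate 10, with the next pig at 17.2 CPM, and at 34.6 CPM in MLE-sham replicate 2, with the next at 10.7 CPM. ALDH2 was also highest in MLE-sham replicate 2, at 629.4 CPM against 471.1 CPM. RBP4 was at 2544.0 CPM in MLE-BDL replicate 6, with the next at 2086.4 CPM. ALDH1A2 was at 1.52 CPM in MLE-BDL replicate 2, with the next lowest at 3.45 CPM, and LRAT was at 9.95 CPM in SLE-sham replicate 5, with the next lowest at 14.4 CPM. The ADH4 response to BDL differed between SLE and ENT pigs by 2.55 on the log2 scale (edgeR interaction, adjusted p = 0.0035). The sham pigs already differed, with medians of 7.06 CPM on SLE and 75.3 CPM on ENT.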

How the results depend on the processing

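Over the 8 genes, 12 comparisons, and the alternatives other than leaving out single pigs, 720 of 756 values kept their direction and side of the threshold, 10 lost and 12 gained a call, and 14 changed sign, none of which had passed in either fit. The cause of these changes was not tested. With the replicate block, the count of called members moved to 1 for MLE against ENT in BDL pigs, ALDH1A2 for BDL in ENT pigs was -0.07, and ALDH1A1 in the SLE against ENT interaction was 0.00. With the identifier block, the counts were 0 for BDL in SLE pigs, 4 for SLE and 1 for MLE against ENT in BDL pigs. With that block ADH4 was -0.29 and ALDH1A1 -0.01 for BDL in SLE pigs, ALDH1A2 0.32 and LRAT 0.01 for MLE against ENT in BDL pigs, ALDH1A1 -0.07 and ALDH1A2 0.20 for the same in sham pigs, ADH4 0.40 and ADH5 0.08 for MLE against SLE in BDL pigs, LRAT -0.01 in the SLE against ENT interaction, and CYP26A1 0.39 in the MLE against SLE interaction. Without both matching ENT libraries, 5 members passed for MLE against ENT in sham pigs and 2 in the SLE against ENT interaction, with ALDH1A2 at 0.00 for MLE against ENT in BDL and ALDH1A1 at -0.06 in sham pigs. DESeq2 called 2 in that interaction, and edgeR on only the groups compared called 0 for BDL in SLE pigs. Past 2-fold as well, 0 were called for BDL in MLE pigs, 0 for SLE against ENT in BDL pigs, 2 in sham pigs, and 1 for MLE against ENT in BDL pigs. The filter of at least 10 counts in every pig gave no value for CYP26A1.

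Leaving out 1 pig at a time, the count of called members ranged over 0 to 1 for BDL in SLE pigs, 2 to 3 for SLE against ENT in BDL pigs, 5 to 6 in sham pigs, 1 to 2 for MLE against ENT in BDL pigs, 3 to 5 in sham pigs (5 without ENT-sham replicate 2), 1 to 3 in the SLE against ENT interaction (3 without ENT-sham replicate 2), and 0 to 1 in the MLE against ENT interaction (1 without MLE-sham replicate 2). The values that changed sign had not passed. For BDL in ENT pigs they were ALDH1A1 (-0.02 to 0.14) and ALDH1A2 (-0.12 to 0.20). In SLE pigs they were ALDH1A1 (-0.01 to 0.12), ALDH2 (-0.07 to 0.03), LRAT (-0.12 to 0.08), and CYP26A1 (-0.80 to 0.86), and in MLE pigs CYP26A1 (-0.44 to 0.90). For diets in BDL pigs they were CYP26A1 (-1.28 to 0.16 for SLE and -0.24 to 0.77 for MLE against ENT, -0.19 to 1.83 for MLE against SLE), LRAT (-0.13 to 0.02 for MLE against ENT), and ALDH1A1 (-0.03 to 0.11 for MLE against SLE). In sham pigs they were ALDH1A1 (-0.07 to 0.06 for MLE against ENT), and ADH4 (-0.05 to 0.51 for MLE against SLE). ADH5 for SLE against ENT in sham pigs ranged from -0.08 to 0.00, at 0 within rounding. In the interactions they were ALDH1A1 (-0.10 to 0.07 for SLE against ENT), ALDH1A2 (-0.02 to 0.29 for MLE against ENT), and CYP26A1 (-0.86 to 1.16 for MLE against SLE).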
